A study of Saccharomyces cerevisiae with 12 samples.

Results

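Molecular chaperones bind proteins that are not yet folded or have lost their fold, and many of them are known as heat shock proteins because heat raises their synthesis. Genes of this class were taken from the gene names of the array's probe table by symbol: the SSA, SSB, SSC, SSE, SSZ, CCT, HSP, CPR, MDJ, GIM, JJJ, PFD, HCH and FPR families, leaving out HSP150, together with named partners such as AHA1, STI1, YDJ1, KAR2 and ZUO1. The rule found 49 genes on 53 spots, of 3127 genes that a spot with a single gene symbol measured, and all 49 had a value on every slide. A further 24 chaperone genes of the same lists, SSA1, HSC82, HSP104, HSP60 and TCP1 among them, had no spot with a single symbol and were not analysed here.

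RNA of Saccharomyces cerevisiae was compared on 6 spotted slides, each with a mutant strain in one channel and its wild type in the other. The strain labelled Y18daft2 (aft1d aft2d) was set against CM3260 in YPD rich medium at an optical density of 0.5, and again after 2 hours in 200 mM hydroxyurea. A strain labelled BY4741 aft1d was set against BY4741 after the same time in the same dose. Aft1 and Aft2 are transcription factors of iron uptake and use, and hydroxyurea inhibits ribonucleotide reductase. Each of the 3 comparisons had 2 slides with the channels exchanged (replicate 1, mutant in channel 2; replicate 2, mutant in channel 1). No slide set treated against untreated cells, so the response of a strain to hydroxyurea was not measured. Nothing in the labels says that the slides of a comparison carried separate cultures, so their p-values measure the spread between slides, which may be technical.

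Each value given is the log2 ratio between a mutant and its wild type, not an RNA level. The log base is taken to be 2. The direction, channel 1 over channel 2, is likely rather than settled. It was set by AFT1, which was 8.24-fold lower in the strain labelled aft1d under this reading (-2.78 and -3.30 on the 2 slides). Were the columns already turned to mutant over wild type, these 2 values would be opposite in sign. So would those of the iron uptake genes ENB1 and FIT3 on the 2 slides of each comparison. Values under that other reading are given below only to show how results depend on it. On the slides labelled Y18daft2, AFT1 had fitted values of -0.02 without and -0.17 with hydroxyurea, AFT2 of -0.08 and -0.17, and none of these passed the test. The spots for these genes therefore did not show the deletions in that strain, and the labels do not say where the spotted sequences lie relative to the deletions. A trend that all columns shared, whichever channel held the mutant, was removed first. The slides of a comparison correlated over all genes at r = 0.21 in rich medium, -0.27 for the strain labelled Y18daft2 in hydroxyurea and 0.39 for aft1.

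Hsp70 and its J-domain partners hold newly made and unfolded chains and release them in rounds of ATP hydrolysis. Hsp90 works later, on proteins close to their final fold such as kinases and receptors, with co-chaperones that deliver clients or set the pace of its ATPase. The chaperonin TRiC/CCT encloses actin and tubulin, which prefoldin hands to it. In yeast the heat shock factor Hsf1 and the stress factors Msn2 and Msn4 drive many of these genes.

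AHA1, which encodes the co-chaperone that stimulates the ATPase of Hsp90, was the 1 chaperone gene that passed the test in any comparison. On the slides of the strain labelled Y18daft2 in hydroxyurea its log2 ratios were -1.45 and -1.50. In rich medium they were -0.23 and -0.34, and on the aft1 slides in hydroxyurea 0.03 and 0.21. Both hydroxyurea slides of Y18daft2 thus lay below all 4 other slides, without overlap. How many of all genes part the slides in such a way was not counted, here or for the genes below. The fitted value in hydroxyurea was -1.47 (SE 0.158, n = 2 slides; 95% interval -1.84 to -1.11), a level 2.78-fold lower than in CM3260, with an adjusted p of 0.0208 (limma over all 6 slides, Benjamini-Hochberg over 3127 genes). In RNA from a whole culture, fewer cells with the transcript and less transcript per cell cannot be told apart.

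The 1 call among 49 chaperone genes stands beside 3 calls among all genes in that comparison, a background of 0.0959%. All 3 were lower, and the others were ENB1 and FIT3, both genes of siderophore iron uptake. AHA1 had the third lowest fitted value of the 3127 genes. Its fitted value in rich medium was -0.28 (95% interval -0.65 to 0.08; adjusted p = 0.999), and in the aft1 comparison 0.12 (-0.24 to 0.48; adjusted p = 0.999). Neither passed the test.

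The differences between comparisons were tested directly. AHA1's ratio in hydroxyurea minus that in rich medium was -1.19 (SE 0.223; 95% interval -1.70 to -0.68), with an unadjusted p of 0.000674 and an adjusted p of 0.508 in limma, and it was the 5th lowest of all genes. The hydroxyurea ratio of Y18daft2 minus that of aft1 was -1.60 (SE 0.223; -2.11 to -1.08; adjusted p = 0.145), the lowest of all genes. Each interval, taken for this gene by itself, lies below 0, but neither difference passed the adjustment over all genes. The second difference sets CM3260 and BY4741 backgrounds as well as genotypes apart, and the contributions of background and genotype cannot be told apart.

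AHA1 was measured by 1 spot, and each slide was present as a strong and a weak scan. As deposited, in channel orientation and before any treatment, the spot read 2.11 (strong) and 1.37 (weak) with the mutant in channel 2 in hydroxyurea. With the mutant in channel 1 it read -0.82 and -1.21. The sign thus turned when the channels were exchanged. In rich medium the deposited values were 0.81 and 0.35 with the mutant in channel 2, and 0.21 and -0.19 with it in channel 1, closer to each other than in hydroxyurea. After centring and removal of the trend, the 4 columns in hydroxyurea gave -1.59 (strong) and -1.31 (weak) on the first slide, against -1.64 (strong) and -1.35 (weak) on the second. The 4 spots whose numbers adjoin that of AHA1 had hydroxyurea means from -0.32 to -0.02, so the low ratio was not shared with them.

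The call for AHA1 depended on the treatment. With the trend left in, its value in hydroxyurea was -1.33 after median-centring (adjusted p = 0.0610) and -1.38 as deposited (adjusted p = 0.0661). It was -1.62 in strong scans alone (adjusted p = 0.126). Without replicate 1 of the comparison the value was -1.51 (adjusted p = 0.380), and without replicate 2 it was -1.43 (adjusted p = 0.990), in limma with Benjamini-Hochberg adjustment. Each of these fits left 1 slide in the comparison, which is assumed to vary like the others. Were the columns already turned to mutant over wild type, the value would be 0.63 (adjusted p = 0.257), since the sign change between slides would then be a disagreement between replicates.

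**Figure D1:**
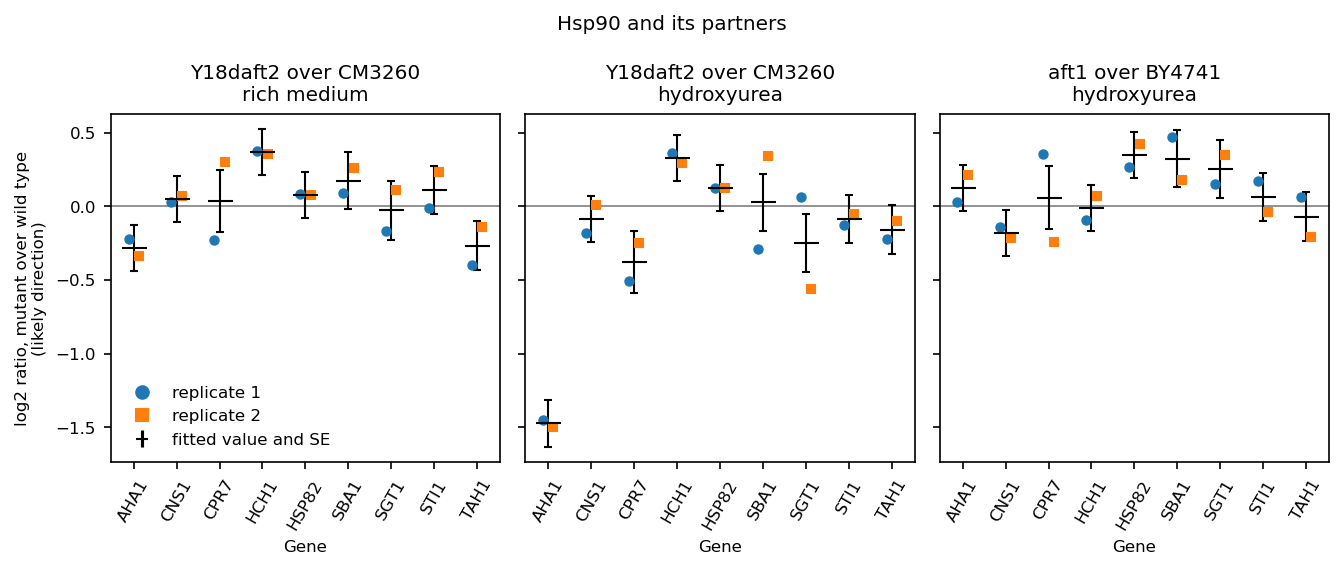
Log2 ratio of mutant over wild type for Hsp90 (HSP82) and 8 of its partners in the 3 comparisons. Circles are replicate 1, squares replicate 2, and bars the fitted value with its SE; AHA1 lies near -1.5 on both slides of Y18daft2 in hydroxyurea, while every other gene of this group lies between -0.6 and 0.5 on every slide.

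No other gene of the Hsp90 group passed the test. HSP82 encodes the heat-inducible Hsp90 itself. Its ratios were 0.08 and 0.07 in rich medium, 0.12 and 0.12 in Y18daft2 in hydroxyurea, and 0.27 and 0.42 in aft1. All 6 slides were above 0 and none of the fitted values passed the test (unadjusted p = 0.0552 in aft1). HSP82 lay at percentile 99.8 along the channel trend, and 2 of its 6 strong-scan values were exact zeros, which were left out. Such zeros touched 4 and 8 chaperone genes on the aft1 slides, 1 on a rich-medium slide and 0 on the other slides. At least 1 zero of HSP82 was thus on an aft1 slide, where a weak scan alone gave the value. Its near-identical copy HSC82 was not analysed here, and the spot may bind RNA of both.

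HCH1 encodes a smaller co-chaperone related to the N-terminal part of Aha1. In Y18daft2 its slides gave 0.38 and 0.35 without hydroxyurea and 0.36 and 0.30 with it. The aft1 slides gave -0.10 and 0.07. Its 4 Y18daft2 slides lay above both aft1 slides, the other side of 0 from AHA1, and the share of all genes that part so was not counted. The fitted values were 0.37 (SE 0.156, unadjusted p = 0.0468) in rich medium and 0.33 (unadjusted p = 0.0669) in hydroxyurea, and neither passed after adjustment in limma.

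STI1, which bridges Hsp70 and Hsp90, had fitted values of 0.11, -0.09 and 0.06 in rich medium, hydroxyurea and aft1. SBA1, the yeast p23 that binds closed Hsp90, had 0.17, 0.03 and 0.32. CPR7, a cyclophilin that docks on Hsp90, read -0.51 and -0.25 in Y18daft2 in hydroxyurea (fitted -0.38, unadjusted p = 0.111). Over the 9 genes, the medians were 0.05, -0.09 and 0.06, beside 0.00, -0.01 and -0.01 over all genes. Of the 9, 6 were above 0 in rich medium, 3 in hydroxyurea and 6 in aft1, and AHA1 was the only call. With the columns taken as already turned and the trend left in, 7, 6 and 6 of the 9 lay above 0, with medians of 0.36, 0.47 and 0.09. The ratio in hydroxyurea minus that in rich medium was below 0 for 7 of the 9 (median -0.15), and so was the difference of Y18daft2 from aft1 for 7 of the 9 (median -0.22). Over all genes 53.7% and 50.6% of these differences were below 0. CPR7 had differences of -0.42 and -0.44, and SGT1, which links Hsp90 to ubiquitin ligases, of -0.22 and -0.50. None of the differences of CPR7 and SGT1 had an unadjusted p under 0.05. The medians of these differences over the 9 genes were 0.11 and 0.38 with the columns taken as already turned and the trend left in.

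The cytosolic Hsp70 system counted 7 genes, with no call in any comparison. SSA2, a constitutive Hsp70, read 0.40 and 0.35 on the aft1 slides, -0.09 and -0.06 in rich medium and 0.06 and 0.34 in Y18daft2 in hydroxyurea. The aft1 value of 0.38 had an unadjusted p of 0.0455 and did not pass after adjustment. Exact zeros made up 2 of its 6 strong-scan values and were left out. At least 1 of them was on an aft1 slide, so the aft1 value rests in part on a weak scan alone. SSA3, a stress-induced copy, read 0.22 and -0.37 in rich medium, opposite in sign, and its spot may bind RNA of the other SSA genes. SIS1, the essential J-domain partner of Ssa proteins, gave -0.35 and -0.23 without hydroxyurea in Y18daft2, then 0.01 and 0.49 with it, and the difference between these conditions was 0.54 (unadjusted p = 0.0609). YDJ1, the abundant J-domain partner, had fitted values of 0.24, 0.01 and 0.17. In hydroxyurea 6 of the 7 genes were above 0, but only 2 were so on both slides, and the list median was 0.08. With the columns taken as already turned and the trend left in it was 0.91, again with 6 of the 7 above 0. Direction and trend treatment changed together there, and their parts in that value were not separated.

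ZUO1 encodes the J-domain protein that sits at the ribosome exit with Ssz1 and drives the Ssb Hsp70s. In Y18daft2 the slides gave -0.61 and -0.40 without hydroxyurea, and -0.54 and -0.66 with it. On the aft1 slides it read 0.04 and 0.03. All 4 Y18daft2 slides were low and the aft1 slides close to 0. The share of all genes whose slides part this way was not counted, and the strains also differ in background. The fitted values were -0.51 (SE 0.158, unadjusted p = 0.0122, adjusted p = 0.655) in rich medium and -0.60 (unadjusted p = 0.00520, adjusted p = 0.9996) in hydroxyurea, so neither passed in limma. The difference from aft1 in hydroxyurea was -0.63 (unadjusted p = 0.0219).

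The Ssb proteins themselves, the ribosome-bound Hsp70s, did not share those values. For SSB1 the Y18daft2 slides gave 0.04 and 0.08 without hydroxyurea and -0.27 and -0.11 with it. For SSB2 they gave 0.04 and -0.30, then -0.30 and 0.30. These copies are nearly identical and cannot be told apart with certainty on spotted slides. The 2 spots of SSB1 had hydroxyurea means of -0.37 and -0.01, a gap wider than the fitted value of -0.19.

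The 6 CCT genes measured encode subunits of the same ring complex. In rich medium all 6 were above 0 on both slides. Over all genes, 28.0% had both slides above 0 there. CCT4 had the highest fitted value, 0.34 (0.41 and 0.27; unadjusted p = 0.0650), followed by CCT2 at 0.26 (0.29 and 0.23) and CCT3 at 0.25 (0.19 and 0.30). CCT7 was lowest at 0.09 (0.17 and 0.01). None passed the test, even unadjusted. The list median was 0.22 beside 0.00 over all genes, and with the trend left in after median-centring 5 of the 6 were above 0. Without replicate 1 it was 4 of the 6, and with the columns taken as already turned and the trend left in all 6.

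In hydroxyurea the CCT genes of Y18daft2 were divided, 3 above and 3 below 0, with a median of -0.04. CCT7 was lowest there at -0.30 (-0.24 and -0.36; unadjusted p = 0.0947). All 6 had a lower ratio in hydroxyurea than in rich medium, with differences from -0.39 to -0.12 and a median of -0.28 beside -0.02 over all genes. No single difference passed the test, and with median-centring alone 4 of the 6 differences were below 0. With the columns taken as already turned and the trend left in, all 6 differences were above 0. In aft1 the median was 0.07. CCT8 was spotted at 2 places whose rich-medium means were 0.42 and -0.04, a gap wider than the list median.

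Prefoldin, the co-chaperone of CCT, had 3 measured genes. In rich medium, GIM3 read -0.18 and -0.46 and PAC10 -0.19 and -0.19, both below 0 on both slides where the CCT genes were above. The list median was -0.19 there, 0.02 in hydroxyurea and -0.12 in aft1. With the columns taken as already turned and the trend left in, these medians were -0.05, 0.08 and 0.11. GIM3 came closest to the threshold at an unadjusted p of 0.0839.

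**Figure D2:**
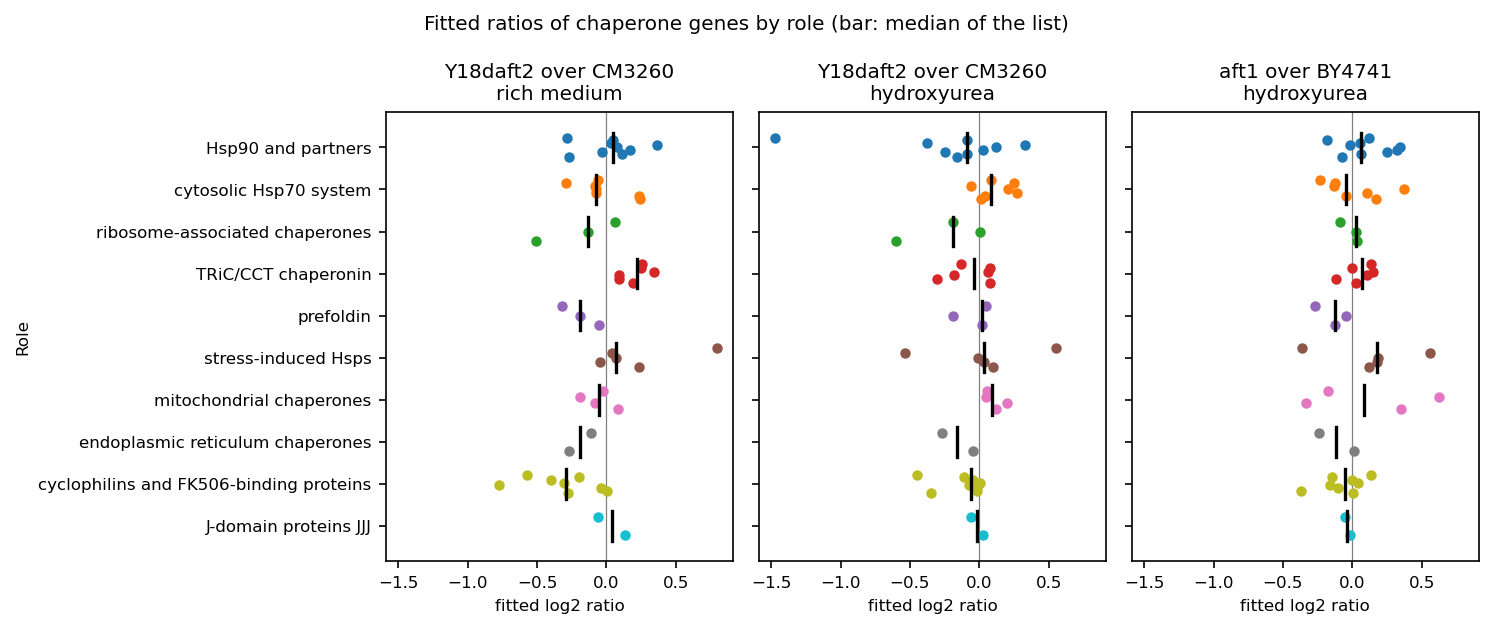
Fitted log2 ratio of mutant over wild type of each of the 49 chaperone genes (points) by role, with the median of each role as a bar, in the 3 comparisons. AHA1 is the isolated point near -1.5 in hydroxyurea; the CCT median in rich medium is 0.22 and that of the cyclophilins and FK506-binding proteins -0.29.

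The stress-induced genes varied most between slides in rich medium, with a median SD of 0.452 over the 2 slides beside 0.147 for all genes. HSP12 encodes a small protein of the plasma membrane that is strongly induced by many stresses. It read 1.22 and 0.37 in rich medium, 0.30 and 0.80 in Y18daft2 in hydroxyurea, and -0.52 and -0.20 in aft1. All 4 Y18daft2 slides were above 0 and both aft1 slides below, and the share of all genes with such signs was not counted. The fitted values were 0.80 in rich medium (SE 0.239, unadjusted p = 0.0101, adjusted p = 0.591), 0.55 in hydroxyurea (unadjusted p = 0.0498) and -0.36 in aft1 (unadjusted p = 0.169). None passed in limma after Benjamini-Hochberg adjustment. Without replicate 2 the rich-medium value was 1.43. It rested on replicate 1, the higher of the 2 slides, and on a channel coefficient from the slides of the other comparisons. With both slides and the trend axis from all columns it was 0.75, with an adjusted limma p of 0.0320. That axis called 63 of all genes there, against 2 in the main fit.

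HSP26, a small heat shock protein that holds unfolded proteins, ran opposite to HSP12 in both hydroxyurea comparisons. It read -0.61 and -0.46 in Y18daft2 and 0.37 and 0.75 in aft1, and 0.36 and -0.28 in rich medium. The fitted values were -0.53 (SE 0.202, unadjusted p = 0.0295) and 0.56 (unadjusted p = 0.0246). Their difference of -1.09 had an unadjusted p of 0.00504 in limma and did not pass after adjustment. The other small Hsp, HSP42, read 0.72 and -0.24 in rich medium and had no sign in common between slides in any comparison. HSP32 and HSP33, near-identical copies of the Hsp31 family, were both above 0 on both aft1 slides, with fitted values of 0.18 and 0.18 that may come from the same RNA.

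Of the 4 mitochondrial chaperones, MDJ2 stood out on the aft1 slides. It encodes a J-domain partner of the mitochondrial Hsp70 in the inner membrane. Its ratios were 0.68 and 0.57 in aft1, -0.18 and -0.20 in rich medium, and -0.09 and 0.19 in Y18daft2 in hydroxyurea. Both aft1 slides were above all 4 Y18daft2 slides, a parting whose share among all genes was not counted. The fitted aft1 value was 0.63 (SE 0.161, unadjusted p = 0.00456, adjusted p = 0.791), the highest of the chaperone genes in that comparison. Fitted on its own 2 slides without a channel term, MDJ2 passed in limma, with an adjusted p of 0.00432 and the same value. That fit called 89 of all genes in aft1, against 4 in the main fit. MGE1, the exchange factor of the same Hsp70, ran the other way at -0.25 and -0.42 (fitted -0.34, unadjusted p = 0.0807). SSC1, the Hsp70 itself, read -0.56 and 0.80 in Y18daft2 in hydroxyurea and 0.76 and -0.05 in aft1, the widest disagreement between slides among the chaperone genes.

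The endoplasmic reticulum was represented by KAR2, its main Hsp70, and LHS1, an exchange factor for Kar2. KAR2 was -0.15 and -0.07 in rich medium, -0.56 and 0.01 in hydroxyurea and -0.15 and -0.33 in aft1. LHS1 was -0.23 and -0.31 in rich medium. Of the 12 values of these genes 9 were below 0, and no fitted value passed the test. Over all genes, 49.1%, 52.1% and 52.1% of fitted values were below 0 in the 3 comparisons. With the columns taken as already turned and the trend left in, both lay above 0 in each comparison. KAR2 (1.02) and LHS1 (0.87) were then called in hydroxyurea, among 20 of the 49 chaperone genes and 578 of all genes. Both lay high along that trend, at percentiles 95.7 and 91.4.

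Cyclophilins and FK506-binding proteins turn prolyl bonds in folding chains and bind immunosuppressive drugs. Of the 8 genes measured, 7 had a fitted value below 0 in rich medium and 5 were below 0 on both slides. Over all genes 23.7% were below 0 on both slides. CPR5, a cyclophilin of the endoplasmic reticulum, read -0.52 and -1.02 (fitted -0.77, SE 0.189, unadjusted p = 0.00349, adjusted p = 0.446). It was the lowest chaperone gene there, while in hydroxyurea it read -0.14 and -0.00 and in aft1 -0.34 and 0.02. Its difference between hydroxyurea and rich medium was 0.70 (unadjusted p = 0.0308), the highest of the chaperone genes.

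CPR1, the abundant cytosolic cyclophilin A, gave -0.96 and -0.18 without hydroxyurea, then -0.02 and -0.88 with it, so in each medium 1 slide carried the value. CPR3, the mitochondrial cyclophilin, read -0.37 and -0.43 in rich medium (fitted -0.40, unadjusted p = 0.0331). FPR3, a nucleolar FK506-binding protein, was even across the Y18daft2 slides at -0.30, -0.25, -0.34 and -0.36, and read -0.05 and 0.06 in aft1. FPR2, of the endoplasmic reticulum, had its lowest values in aft1 at -0.28 and -0.45 (unadjusted p = 0.0661). The list median was -0.29 in rich medium, -0.06 in hydroxyurea and -0.05 in aft1. With the columns taken as already turned and the trend left in, 7 of the 8 lay above 0 in rich medium.

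JJJ1, a J-domain protein of ribosome maturation, was measured by 3 spots, whose mean stayed between -0.12 and 0.00 on all 6 slides. The spots themselves disagreed, at -0.01, 0.27 and -0.51 on replicate 1 of aft1, so the narrow range is that of an average. JJJ3 had fitted values of 0.13, 0.02 and -0.02.

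Over all 49 chaperone genes, none passed the test in rich medium in limma with Benjamini-Hochberg adjustment, against a background of 0.0640% of all genes, and 5 had an unadjusted p under 0.05 (2 higher, 3 lower) beside 5.05% of all genes. In hydroxyurea the unadjusted count in Y18daft2 was 4 (1 higher, 3 lower) beside 1.54%. In aft1 no chaperone gene passed against a background of 0.128%, and 3 had an unadjusted p under 0.05, all higher, beside 4.0%. For the difference between hydroxyurea and rich medium no chaperone gene and none of all genes passed (background 0%), with 2 chaperone genes and 102 of all genes (3.26%) at an unadjusted p under 0.05. For the difference between Y18daft2 and aft1 in hydroxyurea no chaperone gene passed (background 0.0320%), and 5 had an unadjusted p under 0.05, 4 of them lower, beside 2.33% of all genes.

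The median of the 49 genes, relative to genes at a similar place along the channel trend, was -0.04 in rich medium, -0.01 in Y18daft2 in hydroxyurea and 0.01 in aft1. With the columns taken as already turned and the trend left in, it was 0.47, 0.55 and 0.14, beside 0.08, 0.08 and 0.06 over all genes. In hydroxyurea 20 of the 49 were then called, beside 578 of all genes. In rich medium 14 were above 0 and 17 below 0 on both slides, beside 28.0% and 23.7% of all genes. In hydroxyurea these counts were 8 and 14, where 16.4% and 18.1% of all genes were so. In aft1 they were 16 and 14, beside 27.2% and 30.9%. Fitted values beyond 0.5 in size numbered 4, 4 and 2 of 49 in the 3 comparisons, beside 93, 32 and 69 of 3127.

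**Figure D3:**
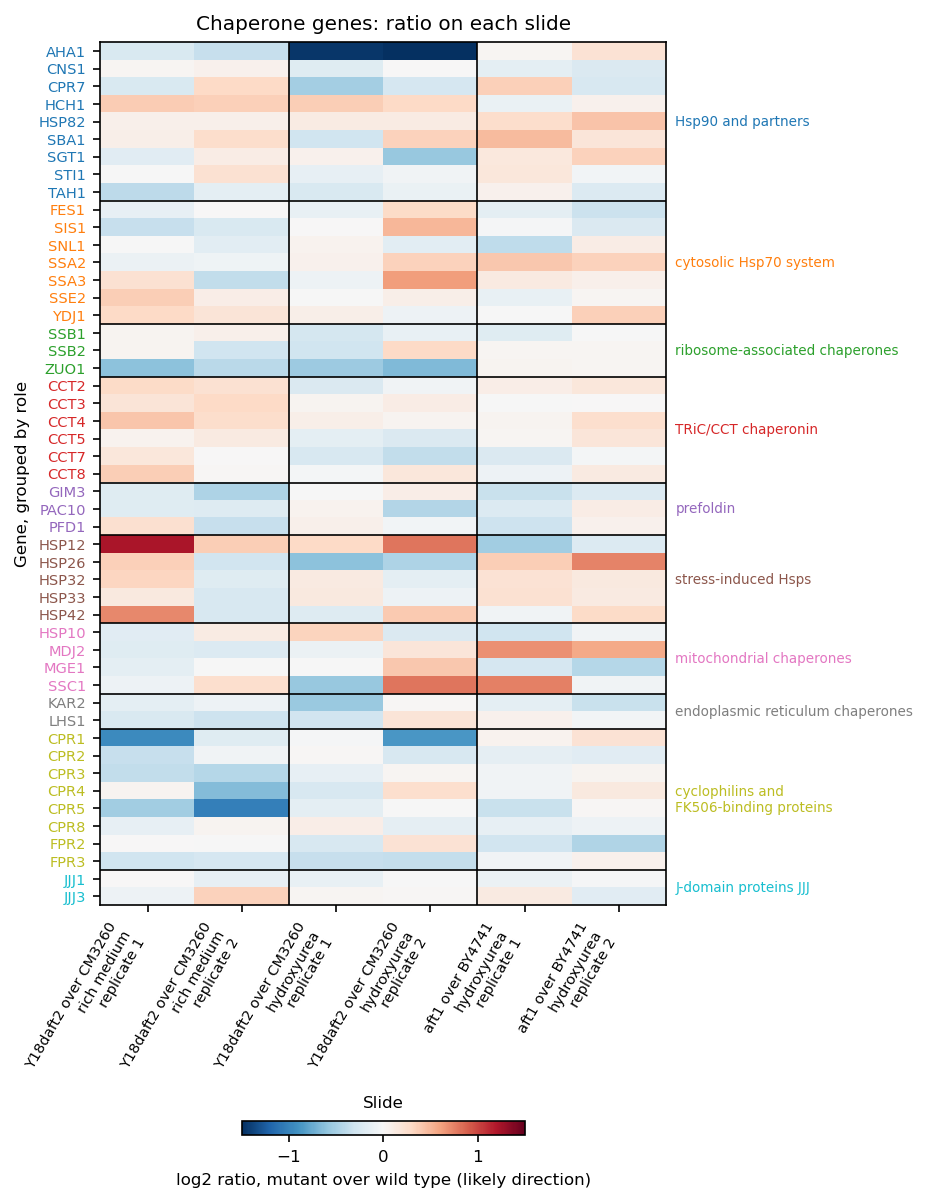
Log2 ratio of mutant over wild type for the 49 chaperone genes (rows, by role) on the 6 slides (columns; blue is lower and red higher in the mutant; the scale is even around 0). AHA1 is the darkest row in both hydroxyurea slides of Y18daft2, while HSP12 is red on the 4 Y18daft2 slides and ZUO1 blue on the same 4.

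The slides of a comparison agreed to different degrees. Across the 49 genes, which are not independent replicates, the ratios on the 2 slides correlated at r = 0.40 in rich medium, 0.42 in Y18daft2 in hydroxyurea and 0.49 in aft1. Without AHA1 the hydroxyurea value was 0.11, so that correlation rested on 1 gene, and the other values were 0.39 and 0.49.

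**Figure D4:**
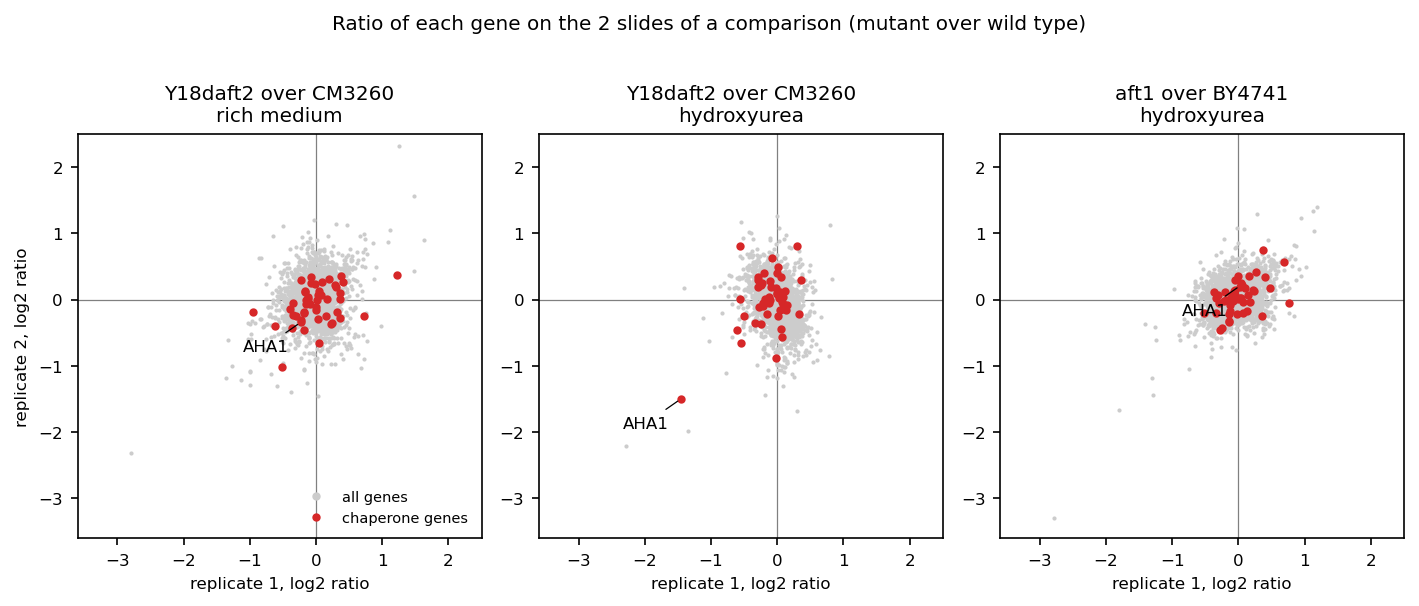
Log2 ratio of mutant over wild type on replicate 1 (horizontal) against replicate 2 (vertical) for all genes (grey) and chaperone genes (red) in the 3 comparisons. In hydroxyurea AHA1 sits at -1.45 and -1.50, apart from a cloud of all genes that slopes down (r = -0.27).

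Many of the chaperone genes lay high along the channel trend, which the rule did not use. As deposited, their median exceeded that of all spots in each of the 12 columns, whichever channel held the mutant. The gap ran from 0.51 against -0.09 in the strong scan of Y18daft2 replicate 2 in hydroxyurea to 0.02 against -0.04 in the weak scan of aft1 replicate 2. Ranked by the channel trend, the median chaperone gene lay at percentile 82.5 of all genes with 21 of 49 above percentile 90 and 3 below percentile 10. The range ran from 0.56 for HSP32 to 99.8 for HSP82. Exact zeros in strong scans touched 9 of the 49 genes (18.4%), against 7.26% of all genes. AHA1, at percentile 87.2, had none. A smooth curve along this trend was removed, and the part of any remainder in the chaperone values was not tested.

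Genes whose 6 slide values ran most like those of AHA1 were PPS1 (r = 0.986), CLB3 (0.986), YMR181C (0.978), DAS1 (0.975) and IDH1 (0.975), given as a description over 6 slides. Their own fitted values in Y18daft2 in hydroxyurea were smaller in size than that of AHA1, from -0.40 for PPS1 to -0.01 for YMR181C. The median size over all genes there was 0.08, and 45 genes had r over 0.9. Among chaperone genes the nearest were CCT5 (0.921), HSP26 (0.90) and CCT2 (0.807), and the 48 others ranged from -0.85 to 0.92 with a median of 0.07.

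Regulators and neighbours of the pathway that the rule left out were taken from a list of 28 genes, of which 15 were measured. None passed the test in any comparison in limma; 3 had an unadjusted p under 0.05 in rich medium, 1 in Y18daft2 in hydroxyurea and 2 in aft1, beside 5.05%, 1.54% and 4.0% of all genes. HSF1, the heat shock factor, had fitted values of -0.06, -0.11 and 0.03. MSN4 gave -0.38 and -0.37 without hydroxyurea in Y18daft2, then 0.55 and 0.28 with it. UBI4, the stress-induced polyubiquitin gene, read 0.67 and 0.96 in rich medium (fitted 0.81, adjusted p = 0.206), and -0.14 and 0.17 in hydroxyurea. TPS1, a trehalose synthase subunit, read 0.56 and 0.31 in rich medium (unadjusted p = 0.0339). The medians of the 15 were 0.04, -0.04 and 0.03.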

How the data were processed

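For 6912 spots, the authors deposited a channel ratio on a log scale in 12 columns, which are the strong and weak scans of 6 slides, per the labels. It is read here as log2, since the base of the deposited values, their background correction, normalisation, dyes and direction are not given in the sources used here. Extraction was with a column kit and labelling indirect, per the labels' protocols. Signal over background is unknown, and the number of slides and the spread between spots limit precision. Of the spots, 3344 carry 1 gene symbol (3127 genes), 387 several and 3181 none in the probe table. No spot with several symbols was used.

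Each column was median-centred, exact zeros of strong scans were set missing, and a lowess curve (span 0.4, 3 iterations) against the mean of the other comparisons' slides in channel orientation was removed. The axis had not been set at the outset. The axis without a column's own comparison, listed as an alternative, was taken after the results of it and of an axis from all columns were seen, because the latter shares values with the column it corrects and called more genes. Columns were turned to mutant over wild type, scans averaged per slide and spots per gene. limma 3.58.1 in R 4.3.3 fitted 3 comparisons and a channel coefficient over 6 slides, with Benjamini-Hochberg adjustment over 3127 genes and a threshold of 0.05. The strong and weak scans of a slide correlated at 0.765 to 0.970. The script was tested on simulated data.

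The genes and lists were chosen with earlier results of these data known. Named by rule were AHA1, Hsp90, Hsp70 and Hsp co-chaperone genes of a set list (HSP82, SSA2, SSB1, SSB2, KAR2, HSP26, HSP12, STI1, SBA1, YDJ1, SIS1), any gene past the threshold, the 5 highest and 5 lowest genes with 1 sign on both slides per comparison, the largest of each role, and the 5 genes and 3 chaperone genes most like AHA1. Named outside it after their values were seen were CCT8, FPR3, HSP32, HSP33, HSP42, SGT1 and SSC1, and HSF1, MSN4, UBI4 and TPS1. Alternatives covered centring, trend, scans, zeros, the channel coefficient, direction and each slide left out.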

Additional observations from a re-analysis of the deposited data

How the results depend on the processing

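With 2 slides a comparison, the fit leans on the spread of all 6 slides. AHA1 in hydroxyurea stayed below 0 in 16 of 17 alternatives and was called in 11. In many of these the value could not move. It stayed at -1.47 by design without the channel coefficient, with 12 columns, or on its own 2 slides. Leaving out a slide of another comparison also kept it, so these fits could change only the spread. AHA1 was not called as deposited (-1.38), median-centred with the trend left in (-1.33), or in strong scans (-1.62). It reversed to 0.63 with the columns taken as already turned. Leaving out 1 slide gave -1.51 to -1.43 and adjusted limma p from 2.73e-09 to 0.990. The replicate number equals the channel of the mutant, so the channel coefficient is the replicate block and the numbers mark no shared culture. Without the replicate block AHA1 kept -1.47 (adjusted p = 0.00637), and the difference from aft1 in hydroxyurea then had 1 chaperone call, AHA1. The block changed no other chaperone call.

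Chaperone calls in rich medium numbered 2 with an axis from weak scans (CPR5, HSP12), 3 with an axis from all columns (also ZUO1) and 0 to 1 with a slide left out. In Y18daft2 in hydroxyurea they numbered 0 as deposited, 0 median-centred, 0 in strong scans and 20 with columns already turned, and 0 to 1 with a slide left out. In aft1 they numbered 1 (MDJ2) with either other axis and 2 on its own slides (MDJ2, HSP26), and 0 to 0 with a slide left out. The hydroxyurea minus rich difference had 1 (AHA1) with either other axis and 0 to 0 with a slide left out. The difference between Y18daft2 and aft1 had 1 with the weak-scan axis, 2 with all columns (AHA1, HSP26), 1 in weak scans, and 0 to 1 with a slide left out. Both axes that include a column's own comparison share values with it, and the cause of their further calls was not tested.

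The median of the 49 genes in rich medium was -0.10 as deposited, -0.11 median-centred, 0.0083 in weak scans and 0.47 with columns already turned, and -0.072 to 0.059 with a slide left out. In Y18daft2 in hydroxyurea it was 0.55 with columns already turned and -0.11 to 0.023 with a slide left out. In aft1 it was -0.25 as deposited, where all genes had a median of -0.23, 0.14 with columns already turned, and -0.0088 to 0.044 with a slide left out. Of the 5 genes most like AHA1, the numbers shared were 1 as deposited, 1 median-centred, 3 and 3 with the other axes, 1 in weak scans, 3 in strong scans and 0 with columns already turned.

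Over 30 other named genes, 26 of 2460 values passed the threshold under an alternative and 449 moved by more than the spread. Over all genes, calls with an axis from all columns numbered 63, 5 and 30 in the 3 comparisons and 23 and 10 in the 2 differences, against 2, 3, 4, 0 and 1. On their own slides 89 genes were called in aft1. With columns already turned, 578 were called in Y18daft2 in hydroxyurea. A filter of 4 of 6 slides gave no other set, since all 3127 genes had all 6. The columns taken as already turned were added after seeing the data.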
